A study of Mus musculus with 12 samples.

Results

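The C/EBP genes Cebpa, Cebpb, Cebpd and Cebpg were examined in the left ventricle (LV) and right ventricle (RV) of mice carrying human phospholamban (PLN), either as the wild-type form (WT-PLN) or with arginine 14 deleted (R14del-PLN). The members were found by their gene symbols, and all 4 of 4 were among the 33641 genes listed and among the 12526 genes tested. They were chosen because measured values of these samples, the differences between genotypes, were already known, so for these 4 genes the genotype differences are given as a description and without a p-value.

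Messenger RNA was sequenced from 12 samples, 3 from each ventricle of each genotype, and expression was deposited by the authors as TPM for each gene (a share of all transcripts, corrected for transcript length). Per the labels the mice were of strain C57BL/6J and 12 to 14 weeks old. Per the study's methods they were males of a hybrid line founded by crossing chimeras to Sox2-Cre mice, the R14del-PLN mice were heterozygous, and both genotypes had the human PLN coding sequence placed at the start codon in exon 2 of the mouse gene. The sample titles abbreviate the mutant as KO, although no gene was removed. Pln was at 1801 ± 85.1 TPM in WT-PLN LV and 1777 ± 163 TPM in WT-PLN RV, and at 1630 ± 79.5 TPM and 1727 ± 80.6 TPM in R14del-PLN LV and RV (mean ± SD, n = 3 each), a level that does not separate the alleles.

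C/EBP proteins are basic leucine zipper (bZIP) transcription factors that bind DNA as pairs, with themselves, with each other or with other bZIP proteins. Cebpb and Cebpd are known as rapidly induced genes of the acute-phase response, raised by interleukin 6 and by glucocorticoids, and in heart muscle C/EBPβ is known as a brake on cardiomyocyte growth that is lowered by endurance exercise. Cebpa is best known for driving the differentiation of adipocytes and myeloid cells. Cebpg encodes a short member without an activation domain, which acts mainly as a partner of other bZIP proteins. Cebpb mRNA gives rise to an activating and a shorter inhibitory protein, and a gene level in TPM does not tell these apart.

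In the mouse genome GRCm38 (GENCODE annotation), Cebpb lies on the forward strand of chromosome 2 from 167688915 to 167690418 and consists of 1 exon. Cebpd lies on the forward strand of chromosome 16 from 15887286 to 15891031. Cebpa, on the forward strand of chromosome 7 from 35119293 to 35121928, and Cebpg, on the reverse strand from 35046422 to 35056573, are neighbours on that chromosome with 62720 bases between them. None of the 4 genes had a near-identical copy in the annotation, at 95% identity over 80% of the shorter transcript. Cebpb overlaps Tmem189 and Cebpd overlaps Spidr, each on the opposite strand, and it is not stated whether reads were assigned by strand. Cebpa overlaps the antisense gene Gm45091, and Cebpg overlaps Gm45095 on the opposite strand and Gm44836 and Gm45094 on its own strand, which strand assignment cannot separate. Tmem189 differed between genotypes by -0.02 in LV and 0.03 in RV and Spidr by -0.18 and -0.13 on the log2(TPM + 1) scale, and neither passed the test (limma, adjusted p = 0.980 and 0.708 in LV, and 1 for both in RV).

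Promoter sequences, 250 bases before to 50 bases after the RefSeq start site in GRCm38.p6, were given for 3 of the 4 members. Those of Cebpb and Cebpg are shown because these genes stood at opposite ends in their genotype difference in RV among the 3 most abundant members. Capitals mark TGACG, the core half-site of the cAMP response element to which CREB and ATF proteins bind, on either strand (CGTCA is the same core on the opposite strand).
Cebpb promoter, chr2:167688665-167688964, forward strand: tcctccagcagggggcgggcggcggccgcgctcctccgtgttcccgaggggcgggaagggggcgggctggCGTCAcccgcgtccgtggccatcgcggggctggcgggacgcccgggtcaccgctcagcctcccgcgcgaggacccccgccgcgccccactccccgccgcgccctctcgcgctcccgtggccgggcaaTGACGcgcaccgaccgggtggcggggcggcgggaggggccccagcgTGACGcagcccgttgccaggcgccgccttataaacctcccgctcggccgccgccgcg
Cebpg promoter, chr7:35056517-35056816, reverse strand: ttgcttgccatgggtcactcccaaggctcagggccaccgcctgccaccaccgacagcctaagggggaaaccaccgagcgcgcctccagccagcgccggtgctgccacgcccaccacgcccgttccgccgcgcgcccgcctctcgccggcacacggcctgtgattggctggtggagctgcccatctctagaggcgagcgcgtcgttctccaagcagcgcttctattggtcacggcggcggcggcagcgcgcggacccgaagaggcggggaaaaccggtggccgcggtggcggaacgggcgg
The Cebpb window held 3 copies of the core, whose first bases lay at -180 (opposite strand), -53 and -7 from the start site. It also held TATAAA, the TATA box sequence, at 21 after the start site. Neither the Cebpg window nor that of Cebpa (chr7:35119043-35119342) held the core, which occurred on either strand in 20.8% of 32851 RefSeq promoter windows of this length. Cebpg instead held 2 copies of CCAAT, the CCAAT box, on the opposite strand at -89 and -28 (37.4% of windows held this motif), and Cebpa held TATAAA at -30 (13.6% of windows). The Cebpb window was 80.7% G and C, that of Cebpg 71.7% and that of Cebpa 67.3%, above the median of 52.7% over all windows. The C/EBP binding pattern TTNNGNAA, present in 40.7% of windows, its palindrome TTGCGCAA, in 0.183%, and the STAT pattern TTCNNNGAA, in 8.3%, were not found in these 3 windows on either strand, and these matches are descriptions of letters only. Cebpd was not among the promoters used here.

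Before the values, some features of the samples bear on all of them. Between 17924 and 18879 genes were above 0 TPM in a sample, and since the values are shares of a fixed total they hold no record of sequencing depth. Mitochondrially encoded genes took 44.0 to 47.3% of TPM in WT-PLN LV, 37.3 to 51.2% in R14del-PLN LV, 48.7 to 52.7% in WT-PLN RV and 51.1 to 54.5% in R14del-PLN RV. Replicate 1 of WT-PLN stood apart in both ventricles. Each of 4 Y-linked genes was at 0.0159 to 0.191 TPM in these 2 samples and at 3.03 to 30.6 TPM in the other 10, although the mice are described as males. R14del-PLN RV replicate 3 carries another run number than the other 11 samples. Nothing states that samples of a group came from separate mice, so the p-values measure only the spread between these samples. In bulk tissue, fewer cells of a type and less RNA per cell cannot be told apart.

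Taken over both genotypes and both ventricles, the C/EBP genes were at low to moderate levels, with Cebpb the most abundant on average. Over the 12 samples Cebpb averaged 11.1 TPM (percentile 67.1 among tested genes), Cebpg 5.81 TPM (percentile 49.5), Cebpd 2.64 TPM (percentile 29.0) and Cebpa 1.64 TPM (percentile 18.6). The order Cebpb, Cebpg, Cebpd, Cebpa held in all 6 WT-PLN samples and in the 3 R14del-PLN LV samples, but in only 1 of the 3 R14del-PLN RV samples. In another of those RV samples Cebpa stood above Cebpd, and in replicate 2 Cebpg also stood above Cebpb.

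Cebpb, the acute-phase factor linked to cardiomyocyte growth, was lower in every R14del-PLN sample than in any WT-PLN sample of either ventricle. In LV it was at 13.9, 21.3 and 21.8 TPM in WT-PLN replicates 1, 2 and 3, and at 6.24, 6.01 and 7.08 TPM in R14del-PLN. In RV it was at 10.8, 16.3 and 14.3 TPM in WT-PLN and at 5.82, 3.32 and 5.84 TPM in R14del-PLN. The lowest WT-PLN sample of each ventricle was replicate 1, and R14del-PLN RV replicate 2 was the lowest of all 12. Mean levels were 19.0 ± 4.43 TPM and 6.44 ± 0.565 TPM in LV (SD, n = 3 each), or 66.1% lower in R14del-PLN, and 13.8 ± 2.78 TPM and 4.99 ± 1.45 TPM in RV, or 63.9% lower. On the log2(TPM + 1) scale used for all differences here, which understates changes of low genes, the difference was -1.40 (SE 0.21) in LV and -1.32 (SE 0.21) in RV.

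Cebpd, the other acute-phase member, showed the same separation. In LV it was at 3.62, 4.37 and 5.41 TPM in WT-PLN and at 1.31, 1.67 and 1.93 TPM in R14del-PLN. In RV the WT-PLN samples lay close together at 3.15, 3.13 and 3.01 TPM, and the R14del-PLN samples were at 1.46, 0.852 and 1.80 TPM. The groups did not overlap in either ventricle. Means were 4.47 ± 0.899 and 1.63 ± 0.313 TPM in LV, 63.4% lower in R14del-PLN, and 3.10 ± 0.0751 and 1.37 ± 0.481 TPM in RV, 55.7% lower (SD, n = 3 each). The log2 difference was -1.05 (SE 0.17) in LV and -0.81 (SE 0.17) in RV.

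Cebpg, the partner subunit, was lower in R14del-PLN LV but overlapped between genotypes in RV. Its LV levels were 6.73, 7.38 and 7.94 TPM in WT-PLN and 4.44, 4.69 and 5.18 TPM in R14del-PLN. Its RV levels were 4.92, 6.36 and 6.39 TPM in WT-PLN and 4.80, 6.05 and 4.89 TPM in R14del-PLN, so 1 mutant sample lay within the control range. The means, 7.35 ± 0.609 and 4.77 ± 0.378 TPM in LV and 5.89 ± 0.840 and 5.25 ± 0.699 TPM in RV (SD, n = 3 each), were 35.1% and 10.9% lower in R14del-PLN. The log2 differences were -0.53 (SE 0.13) in LV and -0.14 (SE 0.13) in RV.

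Cebpa, the adipocyte and myeloid factor, was the least abundant member and had the widest spread in R14del-PLN RV. In LV it was at 1.56, 2.56 and 2.47 TPM in WT-PLN and at 1.14, 1.41 and 1.55 TPM in R14del-PLN, where the closest samples of the groups nearly touched. In RV it was at 1.43, 1.35 and 1.60 TPM in WT-PLN and at 2.33, 1.00 and 1.22 TPM in R14del-PLN, so mutant samples lay on both sides of the control range. Mean levels were 2.20 ± 0.551 and 1.37 ± 0.205 TPM in LV, 37.7% lower in R14del-PLN, and 1.46 ± 0.128 and 1.52 ± 0.711 TPM in RV (SD, n = 3 each). The log2 differences were -0.42 (SE 0.18) in LV and -0.00086 (SE 0.18) in RV.

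**Figure D1:**
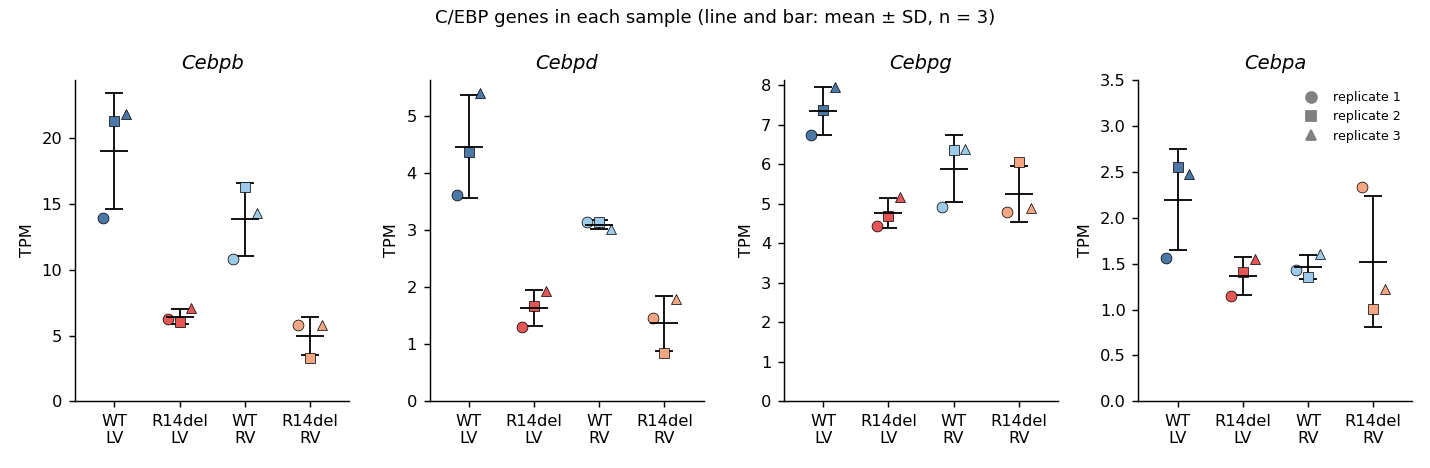
Level of each C/EBP gene in TPM (vertical axis, starting at 0 and scaled for each gene) in the 4 groups, with a point for each sample (shape gives the replicate number) and a line and bar for mean ± SD, n = 3. For Cebpb and Cebpd the R14del-PLN points lie below all WT-PLN points of the same ventricle, while for Cebpg and Cebpa this is so in LV and the groups overlap in RV.

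A gene was called when its limma adjusted p over all tested genes was at most 0.05 and its fold change, taken on the TPM + 1 scale, at least 1.5. By that rule Cebpb and Cebpd were called lower in LV, where 0.423% of tested genes were called lower, and Cebpb alone in RV, where 0.2% were. Non-overlapping groups with R14del-PLN lower were found for 4 of 4 members in LV and 2 of 4 in RV, against 8.47% and 5.79% of all tested genes. The members had been chosen on this contrast, so nothing is read from these counts. The median difference of all tested genes was -0.09 in LV and -0.0034 in RV.

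The calls rested on single samples and on the filter. Without the filter on low values (a mean of at least 0.5 TPM), none of these calls was made, and with the 6 RV samples alone Cebpb was not called in RV. With quantile normalization Cebpd was also called in RV (-0.81). The LV calls of Cebpb and Cebpd were both lost when WT-PLN LV replicate 2 or 3 or R14del-PLN LV replicate 1 or 2 was left out, although the differences stayed between -1.60 and -1.29 for Cebpb and between -1.16 and -0.93 for Cebpd over all 12 single omissions. The RV call of Cebpb was lost without WT-PLN RV replicate 2 or 3 or R14del-PLN RV replicate 2, with differences from -1.48 to -1.10. Leaving out both WT-PLN replicate 1 samples, those with low Y-linked genes, gave -1.60 in LV and -1.48 in RV for Cebpb, -1.16 and -0.80 for Cebpd, -0.59 and -0.24 for Cebpg and -0.57 and -0.01 for Cebpa. Without the R14del-PLN RV sample of the other run, the RV differences were -1.43 for Cebpb, -0.94 for Cebpd, -0.10 for Cebpg and 0.07 for Cebpa, the last with its sign turned.

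**Figure D2:**
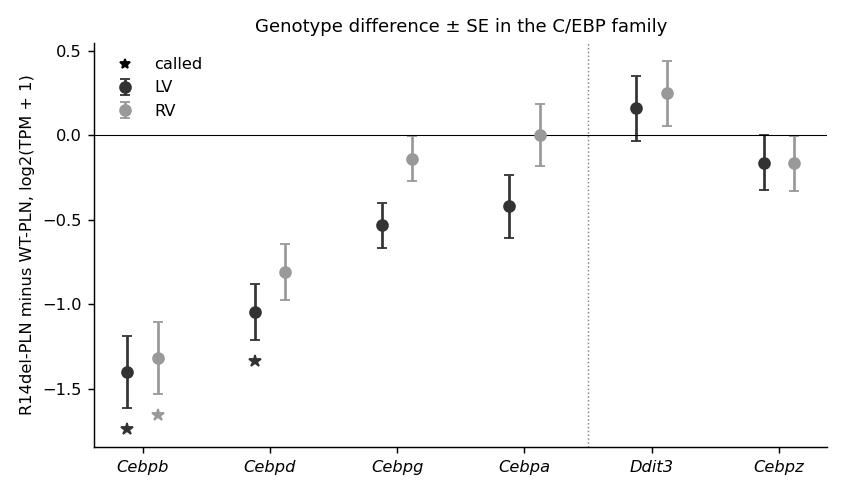
Difference between R14del-PLN and WT-PLN on the log2(TPM + 1) scale (vertical axis, ± SE) for the 4 members and, right of the dotted line, Ddit3 and Cebpz, in LV (dark) and RV (grey), with a star below each called gene. Cebpb lies at -1.40 and -1.32 and Cebpd at -1.05 and -0.81, while Ddit3 lies above 0 in both ventricles.

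The 4 members did not contribute equally to the summed level. Their sum was 33.0 ± 6.32 TPM in WT-PLN LV and 14.2 ± 1.36 TPM in R14del-PLN LV, and 24.3 ± 3.54 and 13.1 ± 1.68 TPM in RV (SD, n = 3 each). Cebpb made up 57.2 ± 3.04% of the sum in WT-PLN LV and 45.4 ± 1.97% in R14del-PLN LV, and 56.6 ± 3.40% and 37.5 ± 6.92% in RV. Cebpg, the member without an activation domain, made up 22.6 ± 2.97% and 33.6 ± 0.584% in LV and 24.3 ± 0.905% and 40.9 ± 11.3% in RV. In R14del-PLN RV replicate 2, Cebpg alone made up 53.9% and Cebpb 29.6%. The ratio of Cebpb to Cebpg accordingly went from 2.57 to 1.35 in LV and from 2.34 to 0.985 in RV, whereas that of Cebpb to Cebpd was 4.25 and 4.02 in LV and 4.47 and 3.71 in RV (means of the ratios in each sample).

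**Figure D3:**
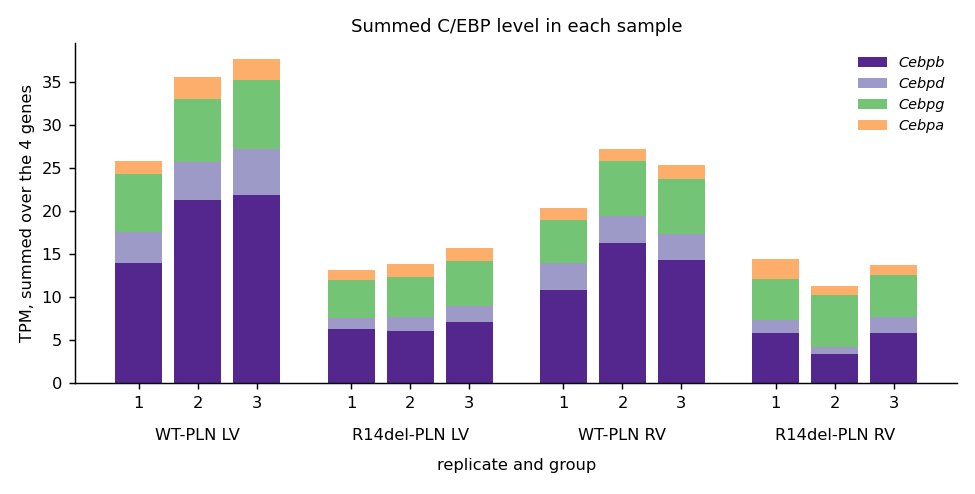
Summed TPM of the 4 C/EBP genes in each of the 12 samples (vertical axis), stacked by gene and arranged by group and replicate. The bars of R14del-PLN samples reach 11.2 to 15.7 TPM and those of WT-PLN samples 20.3 to 37.7 TPM, and the Cebpb segment is the one that differs most in height.

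Whether the members differ between the ventricles was a contrast not used to choose them, and none of the 4 was called in either genotype. In WT-PLN hearts each of the 4 was lower in RV than in LV in 3 of 3 pairs of samples with the same number. This was the general direction, as 85.9% of all tested genes were fitted below 0 in this contrast. In the model of all 12 samples, which did not use these pairs, the differences were -0.42 for Cebpb (95% interval -0.88 to 0.04, limma adjusted p = 0.366), -0.40 for Cebpd (-0.76 to -0.04, adjusted p = 0.311), -0.28 for Cebpg (-0.57 to 0.0044, adjusted p = 0.348) and -0.36 for Cebpa (-0.76 to 0.03, adjusted p = 0.370). A fit of the 3 WT-PLN pairs alone, added after the data were seen, gave the same differences with limma adjusted p of 0.0329 for Cebpb, 0.0675 for Cebpd, 0.0622 for Cebpg and 0.0899 for Cebpa. None of the 4 reached the fold change of 1.5 needed for a call, which was taken on the TPM + 1 scale. In that paired fit 232 of 12526 genes were called, 198 of them lower in RV. RV and LV did not overlap for Cebpd and Cebpg, a separation in this direction that 25.2% of tested genes showed, and the median of all tested genes was itself -0.17. Summed endothelial markers were also lower in every WT-PLN RV sample (59.9 to 73.8 TPM) than in every WT-PLN LV sample (80.4 to 103.7 TPM), and their part in these differences was not tested. In R14del-PLN hearts the differences were -0.34 for Cebpb (-0.80 to 0.12, adjusted p = 0.855), -0.17 for Cebpd (-0.53 to 0.20, adjusted p = 0.960), 0.11 for Cebpg (-0.18 to 0.40, adjusted p = 0.977) and 0.06 for Cebpa (-0.34 to 0.46, adjusted p = 1.00). Cebpb was there lower in each RV sample than in each LV sample, as were 8.72% of tested genes. In the model of all 12 samples with limma, 0% of tested genes were called between ventricles in WT-PLN and 0% in R14del-PLN, while 1811 and 823 had an unadjusted p of at most 0.05, among them, of the members, Cebpd in WT-PLN alone.

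The genotype difference was less negative in RV than in LV for each member. RV minus LV, it was 0.39 (SE 0.19) for Cebpg, 0.42 (SE 0.26) for Cebpa, 0.24 (SE 0.24) for Cebpd and 0.08 (SE 0.30) for Cebpb, against a median of 0.08 over all tested genes. Most tested genes shared this direction, with 25.7% fitted below 0. By limma 0% of tested genes were called for this interaction, and 127 had an unadjusted p of at most 0.05. Since the members had been chosen on its parts, it is given for them without a p-value. The sign for Cebpb was turned by leaving out any of 5 samples (range -0.07 to 0.30) and by quantile normalization (-0.02).

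Across the 12 samples, Cebpb and Cebpd varied together, also within groups. Pearson's r of their log2(TPM + 1) was 0.970 over the 12 samples and 0.759 after group means were removed. Cebpg was correlated with Cebpb at 0.755 and with Cebpd at 0.744, but at 0.186 and -0.060 after group means were removed. Cebpa, by contrast, kept 0.656 with Cebpb and 0.562 with Cebpd within groups (0.617 and 0.632 over all samples), and had -0.035 with Cebpg (0.509). These values are descriptions over 12 samples that share 4 groups and their library composition.

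The genes whose pattern was most like that of a member were picked by the highest r over the 12 samples among all tested genes. For Cebpb they were Mt2 (r = 0.985, and 0.917 within groups), a metallothionein gene induced by metals and glucocorticoids, Map3k6 (0.977 and 0.761), a stress-activated kinase, and Pyurf (0.970 and 0.780). For Cebpd the same 3 genes came up, with Map3k6 at 0.984 (0.902 within groups), Pyurf at 0.967 (0.858) and Mt2 at 0.965 (0.778). These genes were picked for their likeness to members that differed by genotype, so their levels by genotype are given without a p-value. Map3k6 was at 6.24 ± 0.829 TPM in WT-PLN LV and 1.75 ± 0.354 TPM in R14del-PLN LV, and at 4.44 ± 0.187 and 1.31 ± 0.483 TPM in RV (SD, n = 3 each). Mt2 was at 47.0 ± 16.0 and 12.2 ± 3.57 TPM in LV and at 30.0 ± 8.27 and 9.21 ± 3.39 TPM in RV. Pyurf was at 12.4 ± 0.932 and 8.59 ± 0.925 TPM in LV and 11.1 ± 0.429 and 7.22 ± 0.913 TPM in RV. The R14del-PLN samples were below all WT-PLN samples of the same ventricle for each of these 3 genes. This separation follows largely from how they were picked, and 8.47% of all tested genes showed it in LV and 5.79% in RV.

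For Cebpg the most alike genes were others: Timp3, an inhibitor of matrix proteases (r = 0.960, and 0.946 within groups), the splicing factor gene Srsf7 (0.953 and 0.921) and Sox17, an endothelial transcription factor gene (0.953 and 0.957). For Cebpa they were Wfdc17 (0.935 and 0.931), Tcf21, a factor of fibroblasts (0.922 and 0.919), and Cd53, a surface protein of leukocytes (0.919 and 0.875). Like Cebpg, the genes Timp3, Srsf7 and Sox17 had non-overlapping groups in LV and overlapping groups in RV. This likeness follows largely from how they were picked, and 8.47% of all tested genes were lower without overlap in LV. Sox17 was at 7.81 ± 1.07 and 3.93 ± 0.807 TPM in LV and at 4.92 ± 0.930 and 3.59 ± 1.03 TPM in RV (SD, n = 3 each).

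**Figure D4:**
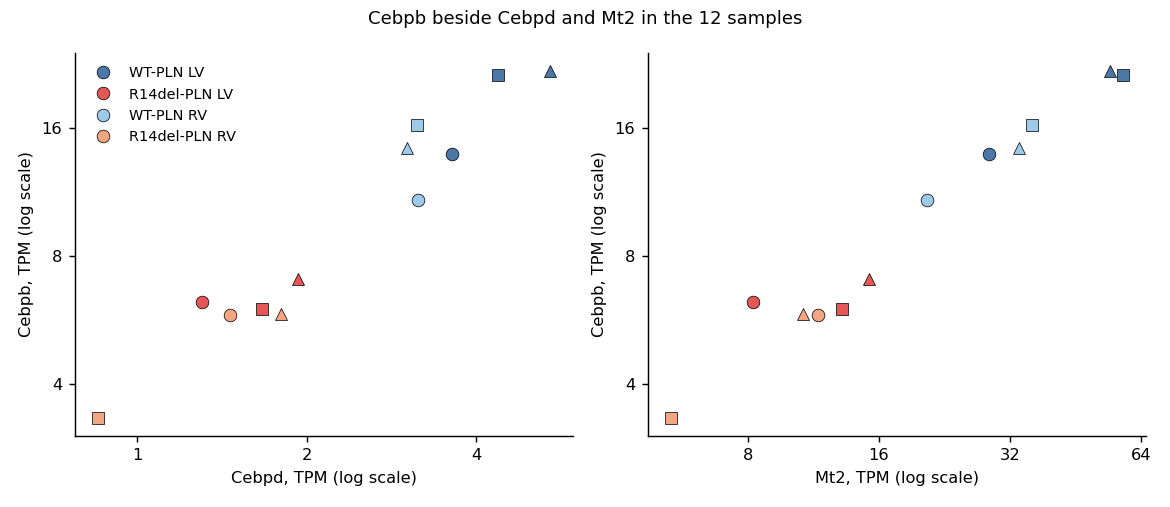
Cebpb in TPM (vertical log axis) against Cebpd (left) and Mt2 (right, horizontal log axes, TPM) in the 12 samples, coloured by group, with the marker shape giving the replicate number (circle 1, square 2, triangle 3). The R14del-PLN samples lie at the lower left and the WT-PLN samples at the upper right in both panels, with r of 0.970 and 0.985 on the log2(TPM + 1) scale.

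Of the family genes outside the members, neither of the 2 tested, Ddit3 and Cebpz, passed the genotype test. Ddit3, whose product CHOP is a stress-induced partner that inhibits C/EBP proteins, was at 14.1 to 20.4 TPM in WT-PLN LV and 15.4 to 24.5 TPM in R14del-PLN LV (means 16.6 and 18.8), and at 11.8 to 12.4 and 12.1 to 18.3 TPM in RV (means 12.1 and 14.8). Its log2 differences were 0.16 and 0.25 (95% intervals -0.26 to 0.57 and -0.17 to 0.66, limma adjusted p = 0.865 and 1). Ddit3 was thus above Cebpd and Cebpa in mean TPM in all 4 groups, and above Cebpb in both R14del-PLN groups. Cebpz, which is named with the family but is not a bZIP gene, differed by -0.16 and -0.17 (limma adjusted p = 0.822 and 1), with an annotated copy of 97.4% identity that could share its reads. Cebpe, a granulocyte factor, was listed at 0 in 11 of 12 samples and at 0.0527 TPM in WT-PLN RV replicate 2.

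Genes upstream of, partnered with or downstream of C/EBP factors were taken from lists, which were put together with earlier results of these samples known. Each gene counted once, 91 of 106 list genes were tested, and 7 were called lower in LV and 3 in RV (0.423% and 0.2% of all tested genes were), all of them from the list of glucocorticoid-induced genes, with 0 called higher. In that list all 12 tested genes were fitted below 0 in both ventricles, with medians of -1.22 in LV and -1.09 in RV, and 10 of 12 had non-overlapping groups with R14del-PLN lower in each ventricle, as 8.47% and 5.79% of all tested genes had. The difference of these genes between the genotypes was known when the list was made, so their levels are a description without a p-value and not independent evidence. The glucocorticoid receptor is a known inducer of Cebpb and Cebpd, but its part in the differences of these samples was not tested. Tsc22d3, which encodes the anti-inflammatory protein GILZ, was at 89.5 ± 15.2 TPM in WT-PLN LV and 38.4 ± 6.96 TPM in R14del-PLN LV, and at 83.7 ± 6.18 and 37.5 ± 2.33 TPM in RV (SD, n = 3 each). Zbtb16, a zinc finger factor, was at 41.7 ± 6.52 and 16.6 ± 4.80 TPM in LV and at 41.5 ± 4.24 and 16.8 ± 1.54 TPM in RV. Per1, also a clock gene, was at 20.5 ± 3.48 and 8.19 ± 1.68 TPM in LV and at 17.4 ± 2.71 and 7.86 ± 0.729 TPM in RV. Fkbp5, a co-chaperone of the receptor, was at 20.3 ± 2.07 and 8.28 ± 1.34 TPM in LV and at 18.8 ± 0.193 and 9.77 ± 3.72 TPM in RV. Tsc22d3, Zbtb16 and Per1 were among the genes called in both ventricles, and Fkbp5 among those called in LV. The other list genes called in LV were Cdkn1a, Klf9 and Mt2, the gene most like Cebpb in pattern. The RV calls of Per1 and Zbtb16 were lost without WT-PLN RV replicate 2 or 3 or R14del-PLN RV replicate 3, and the LV call of Fkbp5 without the same 4 samples as those of Cebpb, while without R14del-PLN RV replicate 2 Fkbp5 was also called in RV.

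The other bZIP genes that can pair with C/EBP proteins had 0 calls by limma. Of 14 tested genes, 14 were fitted below 0 in LV and 13 in RV (71.7% and 50.9% of all tested genes were), with medians of -0.54 and -0.41. At an unadjusted limma p of at most 0.05 there were 8 and 6 of them, against 9.6% and 6.22% of all tested genes. This list too was made with earlier results of these samples known, so these counts are a description and not independent evidence. Jund was at 41.8 ± 7.29 and 27.2 ± 2.00 TPM in LV and at 27.4 ± 3.62 and 19.5 ± 1.99 TPM in RV (limma adjusted p = 0.129 and 0.421). Jun was at 23.1 ± 4.59 and 13.9 ± 1.76 TPM in LV and 15.1 ± 3.00 and 10.9 ± 2.62 TPM in RV (adjusted p = 0.220 and 0.784). Each overlaps an antisense gene in the annotation, Gm11175 and Junos. With both WT-PLN replicate 1 samples left out, Jund and Jun were called in LV (adjusted p = 0.0366 and 0.0372), and Jund also without the LV sample of this pair alone (adjusted p = 0.0351).

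Among the 13 tested genes of inducing signals (cytokine receptors, JAK and STAT genes and the glucocorticoid receptor), 0 were called by limma, and 2 in LV and 1 in RV had an unadjusted p of at most 0.05. Medians were -0.21 and -0.12. Il6ra, the receptor chain for interleukin 6, was at 1.66 ± 0.318 and 0.954 ± 0.0950 TPM in LV and 1.56 ± 0.129 and 0.933 ± 0.288 TPM in RV, without overlap between genotypes in either ventricle (limma adjusted p = 0.249 and 0.449). Socs3, a feedback inhibitor of that pathway, differed by -0.61 and -0.33 (adjusted p = 0.511 and 1). Il6ra was named for its small p in a list made with earlier results known. A separation like that of Il6ra, with R14del-PLN lower, was shown by 8.47% of tested genes in LV. In RV 5.79% of them showed it. The cytokine genes themselves were too low to be tested. Il6 was listed at 0 in 6 of 12 samples and did not exceed 0.128 TPM, and Tnf did not exceed 0.249 TPM. Lif, Osm and Il1b reached at most 0.188, 0.377 and 2.11 TPM. In LV the means of Il1b (0.926 and 0.168 TPM in WT-PLN and R14del-PLN), Osm (0.180 and 0.0191 TPM) and Lif were lower in R14del-PLN. Those of Il6 and Tnf were higher there. The genotypes overlapped for each of these genes in both ventricles.

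The 15 genes of kinases, cofactors and degradation also had 0 calls by limma (2 in each ventricle at an unadjusted p of at most 0.05), with medians of -0.09 and -0.05. Both named genes are Tribbles pseudokinases, which guide C/EBP proteins to degradation, and their fitted differences had opposite signs. Trib1 was at 9.31 ± 3.71 and 4.18 ± 0.884 TPM in LV and 6.81 ± 2.23 and 3.33 ± 0.607 TPM in RV (limma adjusted p = 0.164 and 0.361). Trib2 was at 5.22 ± 0.997 and 7.61 ± 0.154 TPM in LV and 4.34 ± 1.33 and 7.46 ± 0.641 TPM in RV (adjusted p = 0.376 and 0.190). Trib1 was called in LV without WT-PLN LV replicate 1 (adjusted p = 0.0426) and without both WT-PLN replicate 1 samples (adjusted p = 0.0238).

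The lists of known C/EBP targets held no called gene. Of 11 tested acute-phase and inflammatory targets 0 were called by limma (3 in LV and 2 in RV at an unadjusted p of at most 0.05), with medians of -0.21 and -0.41. Nos2, the inducible nitric oxide synthase, was at 1.30 ± 0.197 and 2.03 ± 0.266 TPM in LV and 0.853 ± 0.175 and 1.47 ± 0.292 TPM in RV (limma adjusted p = 0.294 and 0.452). Its R14del-PLN samples lay above all WT-PLN samples of the same ventricle, and how many tested genes did so was not counted. Cd14, a myeloid receptor for bacterial lipopolysaccharide, was at 5.45 ± 2.08 and 2.62 ± 0.365 TPM in LV and 3.64 ± 1.37 and 1.96 ± 0.193 TPM in RV (adjusted p = 0.284 and 0.717). Without both WT-PLN replicate 1 samples, Cd14 was called in LV and RV (adjusted p = 0.00250 and 0.0118), and without WT-PLN LV replicate 1 alone in LV (adjusted p = 0.0386). Of 12 adipocyte and metabolic targets 0 were called (1 and 0 at an unadjusted p of at most 0.05), with medians of -0.09 and 0.03. Pck1, a gene of gluconeogenesis, was at 0.895 to 3.17 TPM in WT-PLN LV and 0.231 to 0.425 TPM in R14del-PLN LV, and at 0.887 to 1.13 and 0.171 to 1.36 TPM in RV (limma adjusted p = 0.153 and 1). It was called in LV without WT-PLN LV replicate 1 (adjusted p = 0.0393) and without both WT-PLN replicate 1 samples (adjusted p = 0.0364). The desaturase gene Scd1, which has a near-identical paralog in Scd2, differed by -0.42 and 0.10 (adjusted p = 0.607 and 1).

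Of the 12 cardiac growth genes 0 were called by limma (2 in LV and 3 in RV at an unadjusted p of at most 0.05), with medians of -0.01 and 0.07. Cited4, a coactivator gene known to rise when C/EBPβ is lowered in the exercised heart, was at 3.49 to 6.59 TPM in WT-PLN LV and 7.41 to 10.7 TPM in R14del-PLN LV, and at 3.13 to 4.98 and 6.91 to 8.80 TPM in RV. The groups did not overlap in either ventricle, with log2 differences of 0.78 and 0.82 (limma adjusted p = 0.171 and 0.182). Cited4 was named for its small p in a list made with earlier results known. How many tested genes were separated in this direction was not counted, and a link to Cebpb was not tested. Cited2, a related gene, was at 19.1 ± 4.21 and 12.7 ± 1.94 TPM in LV and 17.4 ± 3.03 and 12.4 ± 0.359 TPM in RV.

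**Figure D5:**
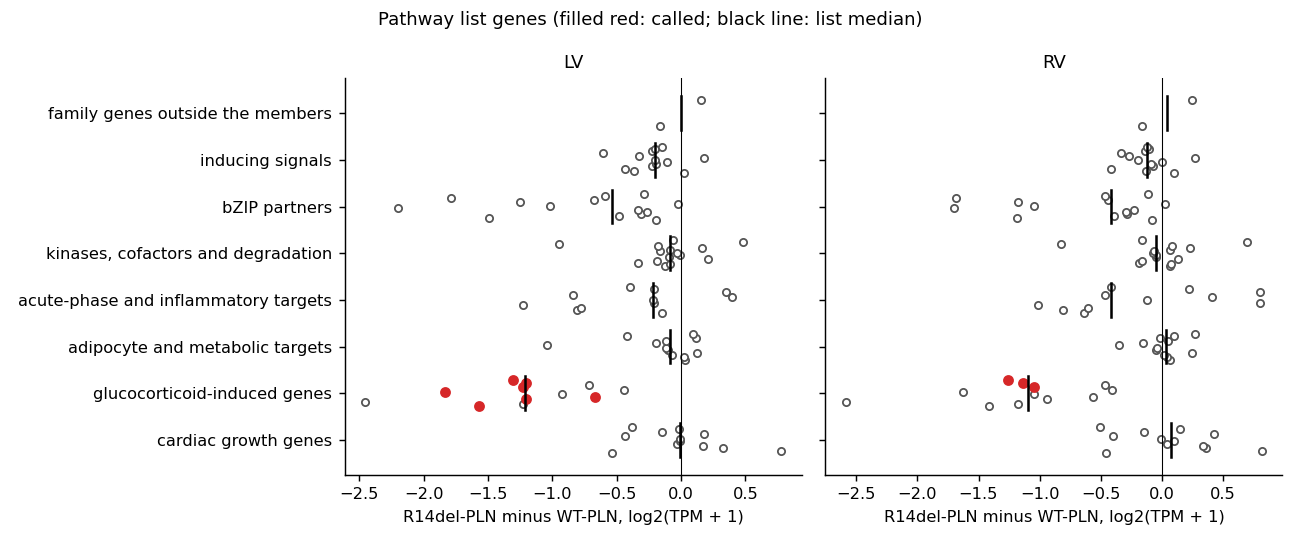
Difference between R14del-PLN and WT-PLN on the log2(TPM + 1) scale (horizontal axis) for each tested gene of the 8 pathway lists in LV (left) and RV (right), with called genes in filled red and the median of each list as a black line. Filled points occur in the glucocorticoid-induced list alone, with 7 in LV and 3 in RV, and all of its genes lie left of 0.

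Cell type markers were set beside the members, since C/EBP genes are used by myeloid cells and adipocytes as well as by cardiomyocytes. No gene of the 8 marker lists was called between genotypes in either ventricle, and the summed levels of each list overlapped between genotypes. The study, using its own program, reported Sln of the atrial list and S100a8 and S100a9 of the neutrophil list as lower in R14del-PLN LV. Cardiomyocyte markers summed to between 28419 and 43109 TPM in the 12 samples. Macrophage markers (8 of 8 tested) summed to 140 to 209 TPM in WT-PLN LV, 132 to 166 TPM in R14del-PLN LV, 119 to 145 TPM in WT-PLN RV and 103 to 185 TPM in R14del-PLN RV. Neutrophil markers (2 of 8 tested) reached 0.728 to 15.1, 0.628 to 1.36, 0.489 to 4.57 and 0.650 to 1.05 TPM in the same order, and adipocyte markers (4 of 6 tested) 4.98 to 20.3, 2.82 to 5.88, 4.33 to 6.39 and 4.47 to 22.8 TPM. No marker was at 0 in every sample. The part of these cell types in the members' levels was not tested.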

How the data were processed

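RNA sequencing was available for 12 mouse ventricle samples, grouped by the genotype and ventricle in their labels. Per the study's methods the authors prepared stranded polyA libraries and mapped reads to GRCm38 with CLC Genomics Workbench. The authors deposited TPM, and the program and annotation behind those values are not given in the sources used here. The members and gene lists were chosen with earlier results of these data known.

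The deposited TPM were tested on the log2(TPM + 1) scale in 1 model of 4 group means, using the moderated test of limma 3.58.1 with its trend option (R 4.3.3). Of 33641 listed genes, 12526 reached 0.5 TPM on average and were tested, and p-values were adjusted over all of them (Benjamini-Hochberg). The thresholds for a call were 0.05 for the adjusted p and 1.5 for the fold change on the TPM + 1 scale. On data simulated for the LV comparison over 12526 genes, 200 of 200 genes changed 4-fold and 13 unchanged genes were called. The changed genes were drawn only from genes of higher level, above that of Cebpd and Cebpa. Their 4-fold change was also larger than that of any member, so this outcome does not give the power for the members. Depth is unknown from TPM, so no counting interval is given. Python 3.11.15 with pandas 2.3.3, numpy 2.4.6 and matplotlib 3.10.9 was used for tables and plots, and BLAST 2.17.0 for copies. Symbols of 97.9% of tested genes matched GENCODE.

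Named genes were the 4 members, the family genes Cebpe, Ddit3 and Cebpz, in each list up to 4 called genes of smallest p (the 2 of smallest unadjusted p where none was called), and the 3 genes most alike to each member. Tmem189, Spidr, Cdkn1a, Klf9, Il6, Tnf, Il1b, Osm and Lif lie outside this rule and were added after values were seen. Sln, S100a8 and S100a9 also lie outside it and are named because the study reported them.

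Replicate numbers were checked as a pairing by correlating deviations from group means over genes. LV and RV samples with the same number correlated at 0.321 to 0.657 in WT-PLN, and at 0.0542 to 0.389 in R14del-PLN. Between genotypes, samples with the same number correlated at -0.0209 to 0.156 in LV and 0.0610 to 0.219 in RV. The correlation was clearest for the WT-PLN ventricles, and the check does not settle whether the others were paired. In R14del-PLN the mean over ventricles of the same number was 0.224, against -0.109 for other numbers. A fit of the 3 WT-PLN pairs alone was added after the data were seen. Alternatives were pseudocounts of 0.5 and 0.1, a filter at 1 TPM and none, the samples of a contrast alone, no trend, quantile normalization, removal of mitochondrially encoded genes, fixed and random replicate blocks, and omission of samples.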

Additional observations from a re-analysis of the deposited data

How the results depend on the processing

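The 4 members kept the sign of their LV difference under all 23 alternatives, and so did Cebpb, Cebpd and Cebpg in RV. Where the groups did not overlap, leaving out a sample could not turn the sign. The members had also been chosen on these differences, so the kept signs are a description only. Without a filter on low values, 22 genes were called in LV and 17 in RV (65 and 34 as reported), 1 between ventricles in WT-PLN, and 4 and 1 pathway list genes, and the calls of Cebpb (-1.40 and -1.32) and of Cebpd in LV (-1.05) were lost. With the 6 samples of a contrast alone, Cebpb in RV (-1.32) was not called, and 1 gene was called between WT-PLN ventricles. Quantile normalization gave 104 calls in LV (65 of them lower, against 53 of 65 as reported) and 85 in RV (56 lower, against 25 of 34), 6 pathway list genes in RV, a call of Cebpd in RV (-0.81) and a Cebpb interaction of -0.0158. Without mitochondrially encoded genes there were 72 calls in RV (42 lower), 2 between WT-PLN ventricles, and a Cebpa difference in RV of 0.0207. The causes were not tested.

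With the replicate number as a fixed block, 119 genes were called in LV and 62 in RV, with 12 and 7 pathway list genes, and Cebpd was called in RV (-0.81), as were Cited4 (adjusted p = 0.00965 in LV and 0.00946 in RV by limma) and Trib1 (0.0131 and 0.0353). This block, which ties numbers across genotypes, called 0 genes between WT-PLN ventricles, whereas a block in the 3 WT-PLN pairs alone, added after the data were seen, called 232 and none of the 4 members. In that contrast every sample correlated best with its own number, a hint from the data and not from the design. Leaving out both WT-PLN replicate 1 samples gave 231 calls in LV and 88 in RV, 2 between WT-PLN ventricles, 20 and 9 pathway list genes, and turned Scd1 in RV to -0.0212.

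With each sample left out in turn, calls ranged from 19 to 153 in LV, 14 to 48 in RV, 0 to 4 and 0 to 1 between ventricles in WT-PLN and R14del-PLN, 0 to 1 for the interaction, and 3 to 14 and 1 to 5 for pathway list genes in LV and RV. LV calls were fewest without R14del-PLN LV replicate 1 and most without WT-PLN LV replicate 1, and RV calls were fewest without WT-PLN RV replicate 2. Differences ranged from -1.60 to -1.29 for Cebpb in LV, -1.48 to -1.10 for Cebpb in RV, -1.16 to -0.93 for Cebpd in LV, -0.22 to 0.15 for Cebpa in RV, -0.0722 to 0.30 for the Cebpb interaction, -0.16 to 0.20 for Cebpa and -0.30 to 0.0029 for Cebpd between R14del-PLN ventricles, -0.15 to 0.24 for Scd1 in RV and -0.0401 to 0.31 for Ddit3 in LV. TPM hold no depth, so the precision of low genes such as Cebpa could not be set.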
